A study of Mus musculus with 4 samples.

Results

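The 6 genes described here are the cadherins and protocadherins Fat2, Cdh7, Cdh23, Pcdhb20, Pcdh8 and Pcdh11x, taken by symbol from 2 tables of genes that the study's authors listed as changed in mouse embryonic stem cells. They are 6 of 1132 distinct gene symbols in the tables, and they were chosen by the deposited fold-change values that put them in a table, so those values are a description and no test was made on them. The libraries came from E14tg2a, an established embryonic stem cell line of strain 129/Ola, 48 hours after transient transfection with a scrambled shRNA or with 1 shRNA against Mrhl, a nuclear long non-coding RNA. Each group had 2 libraries, scrambled and sh-Mrhl, and both shared the line, the medium and the transfection. The labels disagree on delivery, since 1 field speaks of a lentivirus and the protocol of a transfection reagent. Whether the replicates were separate cultures is not stated. The comparison addresses which transcripts differ when Mrhl is targeted in these cells.

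Cadherins are calcium-dependent adhesion proteins. Their extracellular part is a chain of cadherin repeats, stiffened by calcium ions bound at the joints between repeats, and cells that carry the same cadherin tend to stick to each other. Classical cadherins bind catenins inside the cell and so reach the actin cytoskeleton, whereas protocadherins lack that catenin-binding tail and serve mainly in cell recognition, above all in the nervous system. In mouse embryonic stem cells the main classical cadherin is E-cadherin, the product of Cdh1.

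Each of the 6 proteins carries a calcium-binding signature in at least some of its repeats, in which aspartate, any residue, asparagine, aspartate and asparagine follow each other at the end of a repeat. The coding sequence around the first such signature is shown for the 5 members on chromosomes 1, 10, 11, 14 and X, because it occurs in every one of them across subfamilies. The 5 codons of the signature are in capitals, with 15 bases on either side, 5′ to 3′ from the GENCODE M21 transcript with the longest coding sequence.
Fat2: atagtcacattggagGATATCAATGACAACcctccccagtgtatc
Cdh7: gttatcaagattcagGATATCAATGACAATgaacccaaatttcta
Pcdh8: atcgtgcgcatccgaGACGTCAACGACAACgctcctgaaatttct
Cdh23: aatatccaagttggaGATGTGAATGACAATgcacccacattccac
Pcdh11x: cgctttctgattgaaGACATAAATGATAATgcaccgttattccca
These first signatures began at residue 917 in Fat2, 145 in Cdh7, 346 in Pcdh8, 124 in Cdh23 and 131 in Pcdh11x. At the second position, which the signature leaves free, Fat2 and Cdh7 used the same codon, and the other 3 genes each used a different one. Within the signature Fat2 and Cdh7 differed only in the last codon, by synonyms for asparagine.

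Each table row gave 1 signed fold-change value for sh-Mrhl against scrambled, with nothing per library beside it, neither counts nor levels nor p-values. Depth and replicate error are thus unknown, and "lower" and "higher" below mean only the table in which the authors put a gene. The scale of the values, log2 or signed linear fold, is not stated, and none lies between -1.5 and 1.5. Of the 6 members, 4 were listed as lower in sh-Mrhl and 2 as higher. For comparison, 2.51% of the 21924 annotated protein-coding symbols were in either table, 1.58% in the lower and 0.935% in the higher one. The members were chosen for being listed, so nothing is read from their count. The median value was -1.91 over the 722 symbols of the authors' deposited table of lower genes and 1.94 over the 411 symbols of the table of higher genes.

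**Figure D1:**
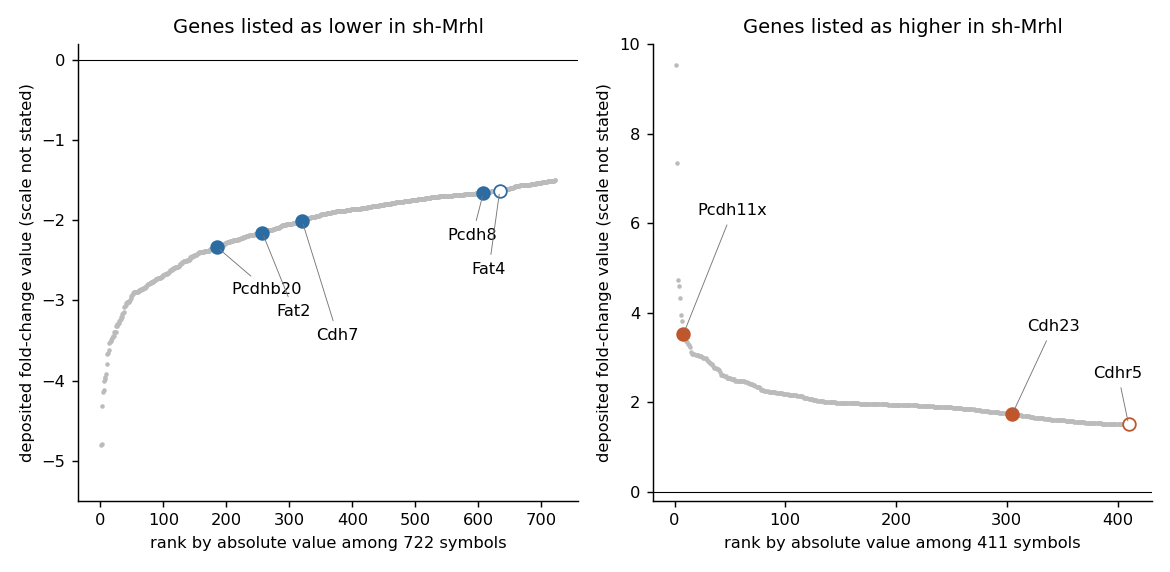
Deposited fold-change value (vertical axis, scale not stated) against rank by absolute value (horizontal axis) for every symbol listed as lower (left) and higher (right) in sh-Mrhl. Filled circles are the 6 members, and open circles are Fat4 and Cdhr5, the other listed genes of the superfamily. Pcdh11x, at 3.52, lies among the first 10 symbols of its table, while Pcdh8 and Cdh23 lie in the flat part of theirs.

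Among the classical cadherins, Cdh7 was the listed gene. It encodes a type II cadherin, a class that binds catenins as E-cadherin does and is known from the developing nervous system. Cdh7 had a value of -2.003 in the authors' deposited table, which placed it at rank 320 of 722 lower symbols by absolute value. The gene spans 158 kb on the plus strand of chromosome 1, from 109982431 to 110140157 in mm10, and its longest coding sequence of 2355 bases is split over 11 coding exons. None of the other 12 type II genes on the list examined was in either table, and none of the 5 type I genes was, Cdh1 and Cdh2 (N-cadherin) among them. The closest relative of Cdh7 among those compared is Cdh20, with 62.9% identical residues over the aligned protein, against 49.7% for Cdh19 and 38.2% for Cdh1. Cdh19 lies 748 kb from Cdh7 and Cdh20 lies 4.99 Mb away on the same chromosome.

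The FAT genes encode giant cadherins, known in flies and vertebrates for roles in tissue polarity and collective cell movement. Fat2, the member of this subfamily, stood at -2.15 in the authors' deposited table, at rank 257 of 722. It covers 86.0 kb of the minus strand of chromosome 11, from 55250609 to 55336564 in mm10, and its coding sequence of 13053 bases was longer than that of 99.7% of annotated protein-coding genes. A second FAT gene, Fat4, was also listed as lower, at -1.63 in the authors' deposited table, although it is not one of the 6 members. Fat4 is the receptor for the Dachsous cadherin in planar polarity. Its value was nearer to 0 than that of Fat2, at rank 634 of 722. Of the 6 FAT and Dachsous genes, 2 were thus lower and Fat1, Fat3, Dchs1 and Dchs2 were in neither table. Fat2 and Fat4 are distant relatives, with 30.8% identical residues over the aligned protein, while Fat2 shares 44.6% with Fat1 and 42.8% with Fat3.

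Cdh23 encodes the cadherin that, together with protocadherin 15, forms the tip link of inner-ear hair cells, the thread that pulls open the transduction channels. It was listed as higher, at 1.74 in the authors' deposited table, rank 305 of 411. The gene spans 394 kb of the minus strand of chromosome 10, from 60302748 to 60696490 in mm10, with 69 coding exons of which the largest holds 4.56% of the coding sequence. Pcdh15, its tip-link partner, was in neither table. Another cadherin-related gene, Cdhr5, which encodes an adhesion protein of intestinal microvilli, was also listed as higher and is not one of the 6 members. Its value of 1.504 in the authors' deposited table was 410th of 411, next to the smallest value listed.

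Clustered protocadherins lie in tandem arrays in which neurons choose different promoters, so that each neuron carries its own mixture of these recognition proteins. Pcdhb20, a gene of the beta array, had the value farthest from 0 among the 4 lower members, -2.33 in the authors' deposited table, at rank 185 of 722. It lies on the plus strand of chromosome 18, from 37504264 to 37507822 in mm10, and a single exon holds its whole coding sequence of 2397 bases. The other 21 beta genes were in neither table, nor were the 13 alpha and 22 gamma genes annotated under the symbols searched. That made 1 of 57 clustered genes, or 1.75%, which is near the 2.51% of all protein-coding symbols. Of the 62 other superfamily genes 7 were listed, or 11.3%. Most of these 7 are members, and the family was chosen with earlier results known, so nothing is read from that share. The nearest neighbours of Pcdhb20, Pcdhb19 at 136 bp and Pcdhb21 at 5.80 kb, were not listed.

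Beta protocadherins are close copies of each other, which bears on how reads could be assigned to Pcdhb20. Its protein shared between 48.2% (Pcdhb1) and 73.4% (Pcdhb15) identical residues with the other beta proteins. At the level of exact transcript sequence the copies were easier to tell apart. Of the 3485 distinct 75-base windows in the annotated Pcdhb20 transcript, 59, or 1.69%, also occurred in a transcript of another gene, namely Pcdhb19 or Pcdhb17. Counting only genes that do not overlap each other's loci, the share over the other 21 beta genes ran from 0.00% to 4.05%, with a median of 0.727%, and that of Pcdhb20 was the same 1.69%. With windows of 50 bases the Pcdhb20 share was 5.47%, and with windows of 100 bases 0.173%. With overlapping loci counted, the alpha and gamma genes shared from 32.9% (Pcdhgb5) to 98.4% (Pcdhga10) of their 75-base windows with other genes. On that same measure the highest beta values were 62.9% (Pcdhb12), 8.96% (Pcdhb21) and 6.01% (Pcdhb22), and Pcdhb20 stood at 1.69%. Without overlapping loci, the alpha genes had at most 2.01% and the gamma genes 0.00%. Reads from windows shared by overlapping loci are harder to assign to 1 gene. The absence of the alpha and gamma genes from the tables can thus not be set directly beside that of the beta genes. The read length is not given in the sources used here, and reads with mismatches were not modelled. None of the other 5 members had a single window of these 3 lengths in a transcript of a gene lying elsewhere.

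**Figure D2:**
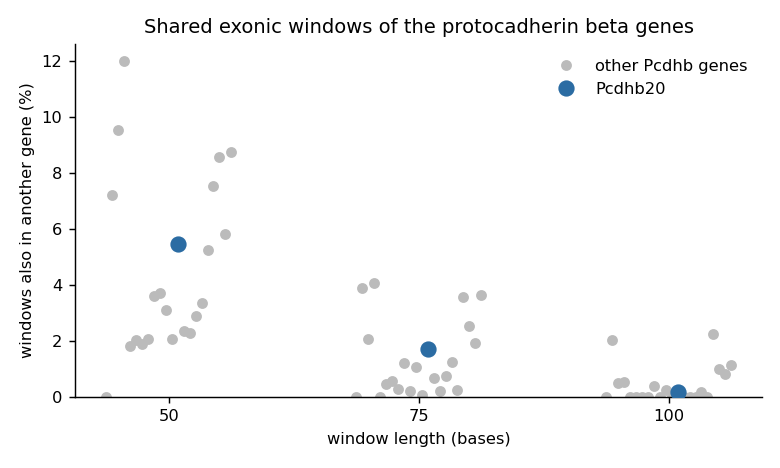
Percentage of the distinct exonic windows of each of the 22 protocadherin beta genes that also occur in a transcript of another, non-overlapping gene (vertical axis), for windows of 50, 75 and 100 bases (horizontal axis). Each point is 1 gene, spread sideways for legibility, and the large point is Pcdhb20, at 5.47%, 1.69% and 0.173%.

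The non-clustered protocadherins had 1 gene in each direction. Pcdh11x, a delta-1 protocadherin of the X chromosome that is known mainly from the brain, had the value farthest from 0 of all 6 members, 3.52 in the authors' deposited table. It was 8th of 411 higher symbols and 6th of the 207 that the authors typed as protein-coding. A value of 3.52 would stand for an 11.5-fold increase on a log2 scale and for a 3.52-fold increase on a linear one. The gene is also the longest of the members, spanning 620 kb of the plus strand from 120290259 to 120910619 in mm10. The other delta-1 genes, Pcdh1, Pcdh7 and Pcdh9, were in neither table, although Pcdh9 shares 56.7% of aligned residues with Pcdh11x.

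Pcdh8, also called paraxial protocadherin, is a delta-2 protocadherin known from the forming mesoderm and somites of the embryo and from synapses. It was listed as lower, at -1.66 in the authors' deposited table, the value nearest to 0 among the lower members and at rank 608 of 722. On a log2 scale this would be a 3.15-fold decrease and on a linear one a 1.66-fold decrease. The gene is compact, with 3 exons over 4.54 kb of the minus strand of chromosome 14, from 79766775 to 79771312 in mm10, and 1 exon holds 81.8% of the coding sequence. The other delta-2 genes, Pcdh10, Pcdh17, Pcdh18 and Pcdh19, were in neither table. Pcdh8 shares 32.6% of aligned residues with Pcdh11x and 40.7% with Pcdh10.

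By subfamily, the listed genes were spread out rather than gathered in 1 branch. The 8 listed genes, the 6 members with Fat4 and Cdhr5, fell into 7 of the 14 subfamilies examined, and FAT and Dachsous was the subfamily with more than 1. They made up 8 of 119 annotated superfamily genes, or 6.72%, beside 2.51% of all protein-coding symbols. Of these, 5 were lower (4.20%, beside 1.58%) and 3 were higher (2.52%, beside 0.935%). These shares describe the tables and were not tested. The members and gene lists were chosen with earlier results of these data known, so nothing is read from shares above the background. The full set of genes measured was also not used here. The 9 desmosomal cadherins, the 3 flamingo (Celsr) genes and the 4 atypical and 7D cadherins had no listed gene. A gene outside the tables cannot be called unchanged, because the authors' threshold is not stated.

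**Figure D3:**
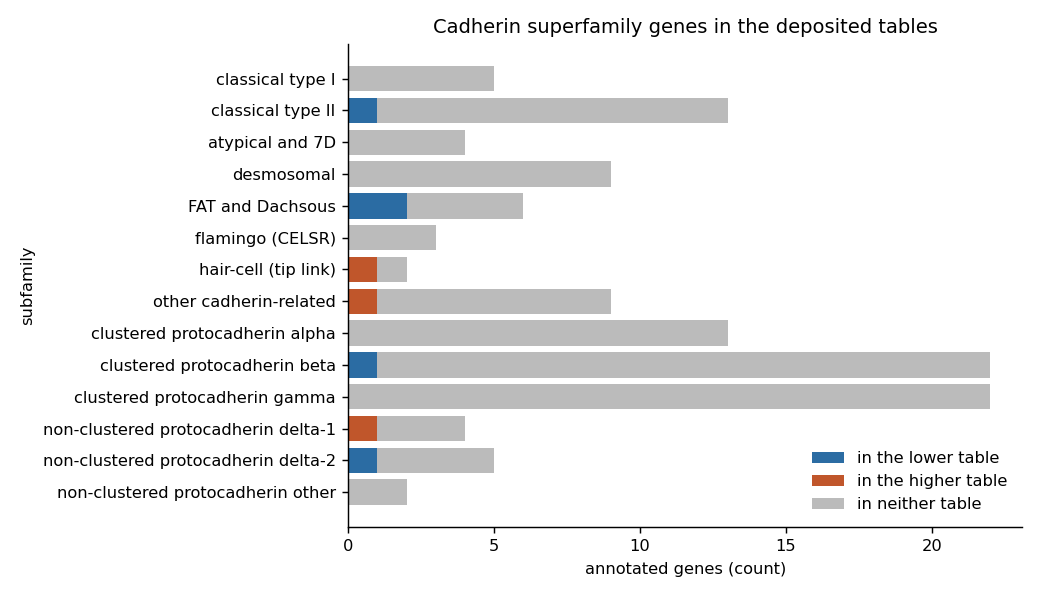
Number of annotated genes (horizontal axis) in each of the 14 subfamilies of the cadherin superfamily (vertical axis), coloured by the table in which they were listed. FAT and Dachsous has 2 lower genes, and the 57 clustered protocadherins have 1 listed gene.

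The proteins differ widely in length and in the number of calcium-binding signatures. Cdh23 had 17 exact signatures in 3354 residues, Fat2 had 13 in 4351, Pcdh11x had 6 in 1338, Pcdhb20 had 4 in 799, Cdh7 had 3 in 785 and Pcdh8 had 2 in 1070. Several of these counts were typical of the subfamily. All 4 delta-1 protocadherins had 6, the type II cadherins had a median of 3 and the beta protocadherins a median of 4. Pcdh8 stood below the other delta-2 protocadherins, which had 5 each. When the last asparagine was left free, Pcdh8 had 6 matches, so its repeats carry the signature with another last residue. The larger proteins were found in both directions, Fat2 among the lower and Cdh23 among the higher genes. Coding sequences of the members were long by the standard of the tables. The shortest, that of Cdh7, was longer than 81.8% of annotated protein-coding genes, and the median was 1410 bases among lower, 1449 among higher and 1173 among all annotated protein-coding genes. Such lengths are not particular to the listed genes of the family. The unlisted Cdh20 and Pcdhb19 each encode 801 residues and Fat1 encodes 4645, near Cdh7, Pcdhb20 and Fat2 in turn. Pcdh15, with 1943, is shorter than Cdh23. A longer transcript yields more reads at the same level, and the part of length in which genes were listed was not tested.

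**Figure D4:**
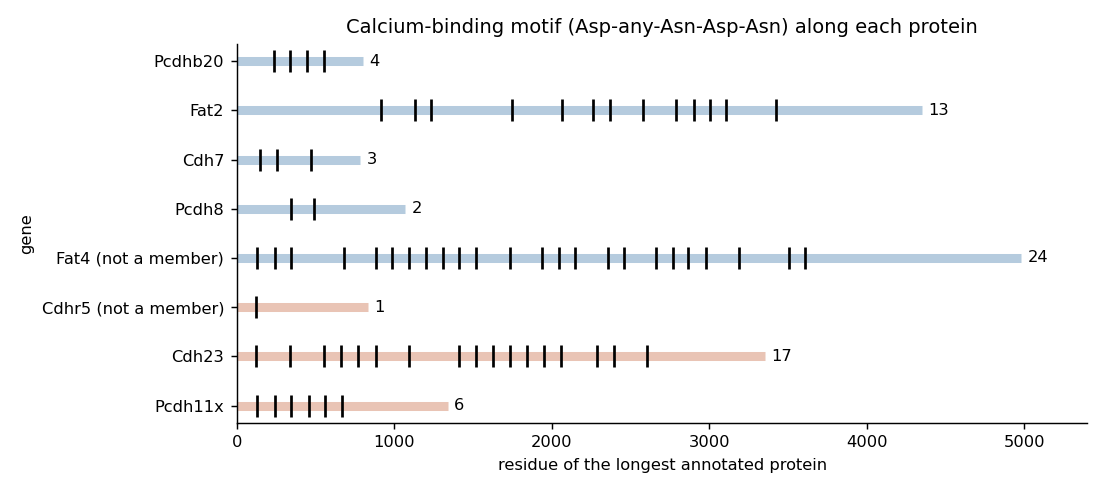
Position of each exact calcium-binding signature (black ticks) along the longest annotated protein (horizontal axis, residues) of the 6 members and of Fat4 and Cdhr5 (rows). Blue bars are genes listed as lower and orange bars genes listed as higher, and the number after each bar is the count of signatures, from 1 in Cdhr5 to 24 in Fat4.

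For 4 of the 6 members RefSeq gave a window around an annotated start, and the 250 bases before the start are shown for the 2 members whose RefSeq start is also the first start in GENCODE M21, 1 lower and 1 higher. Capitals mark matches on either strand to 6 motifs chosen after these sequences had been seen. These were CCAAT (a promoter element), TATAAA (the core of a TATA box), ATGCAAAT (the octamer bound by POU-domain factors), CAGGTG (an E-box), GGGCGG (a GC box) and CTTTGA (a core of TCF and LEF sites). The sequences are from RefSeq on GRCm38.p6, 5′ to 3′ on the minus strand of the genome, on which both genes lie, at chr14:79771313-79771562 for Pcdh8 and chr10:60696491-60696740 for Cdh23.
Pcdh8: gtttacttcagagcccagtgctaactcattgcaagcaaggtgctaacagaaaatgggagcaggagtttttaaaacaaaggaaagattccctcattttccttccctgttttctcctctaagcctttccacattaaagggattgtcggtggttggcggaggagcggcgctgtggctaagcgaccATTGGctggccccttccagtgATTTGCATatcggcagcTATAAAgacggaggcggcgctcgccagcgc
Cdh23: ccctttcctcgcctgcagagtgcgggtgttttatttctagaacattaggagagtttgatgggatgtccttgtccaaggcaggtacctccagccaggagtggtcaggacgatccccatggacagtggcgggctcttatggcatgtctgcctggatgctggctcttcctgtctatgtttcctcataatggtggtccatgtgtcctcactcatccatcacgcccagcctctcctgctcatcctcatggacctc
The Pcdh8 window held a reversed CCAAT match whose first base was at -68 from the start, a reversed octamer match at -47 and a TATAAA match at -30, and the matches did not overlap. A CCAAT match was present in 33.8% of the 32851 RefSeq windows of this length, TATAAA in 12.4% and the octamer in 1.60%. Because the motifs were chosen with the sequences in view, these shares do not measure how unusual the Pcdh8 matches are. The Cdh23 window held none of the 6 motifs, which says only that these letters are not in this window. For Cdh7 the windows before its 3 RefSeq starts overlapped exons of GENCODE transcripts that start further upstream, and for Fat2 the RefSeq start lay 24.3 kb inside the gene, at the start of a shorter transcript.

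Within 1 Mb of the 6 members, 5 of 298 annotated genes were listed, or 1.68%, beside 2.04% of all annotated symbols of any type. Among them, Pcdhb20 had 1 listed gene, Slc25a2, a mitochondrial ornithine carrier gene that lies 130 kb downstream and stood at -1.72 in the authors' deposited table. Fat2 had Ccdc69, 172 kb downstream, at -2.12 in the authors' deposited table, so that in both of these pairs the 2 genes were lower. Cdh23 had 3 listed neighbours in mixed directions. The gene model Gm19972, 112 kb upstream, was at 1.57, the non-coding Gm20625, 342 kb upstream, at -2.82 and Npffr1, a neuropeptide receptor gene 899 kb upstream, at 1.53 in the authors' deposited tables. Cdh7, Pcdh8 and Pcdh11x had no listed gene within 1 Mb.

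**Figure D5:**
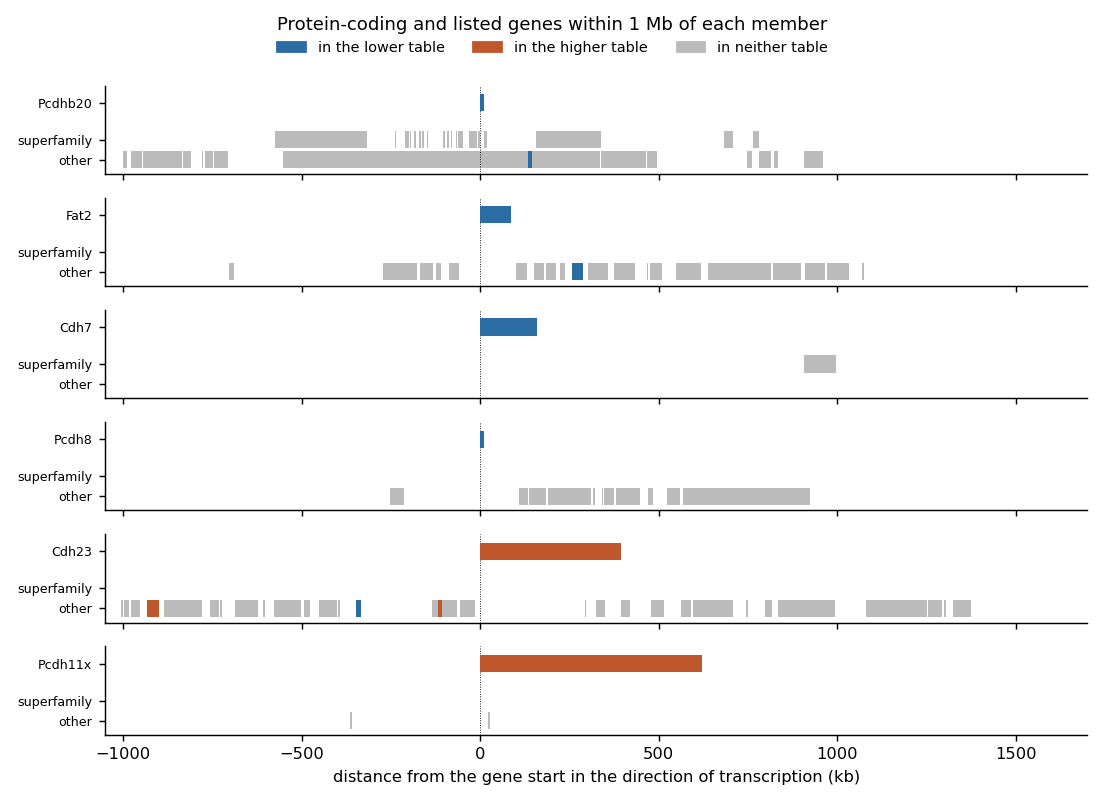
Protein-coding and listed genes within 1 Mb of each of the 6 members, placed by distance from the member's start in its direction of transcription (horizontal axis, kb). In each panel the top row is the member, the middle row other superfamily genes and the bottom row all others. Bars of listed genes are drawn at least 12 kb wide and the others at least 4 kb. The superfamily genes around Pcdhb20 are grey because none of them was listed.

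Some members overlap other genes, and no source used here says whether the authors counted by strand. The non-coding gene Gm9748 runs on the opposite strand across the start of Pcdh8, from 79769908 to 79772743 on chromosome 14 in mm10, and 7.65% of the 75-base windows of Pcdh8 transcripts occur in it as the reverse complement. Without strand, reads of Pcdh8 and Gm9748 in that stretch cannot be told apart, and Gm9748 was in neither table. Vsir, which encodes an immune checkpoint protein, and the protein-coding gene model Gm17455 lie within Cdh23 on the opposite strand. Neither shares a 75-base window with it. H2afb3, a histone variant gene, lies within Pcdh11x on the opposite strand, likewise with no shared window. The processed pseudogenes Gm14931 and Gm14930 on the opposite strand and Gm14927 on the same strand also lie within Pcdh11x, without a shared window. None of these genes within Cdh23 and Pcdh11x was listed. Pcdhb20 lies inside 3 long gene models on its own strand, Gm42416, Gm37013 and Gm37388, none of which was listed or shared a 75-base window with it.

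Lists of cadherin partners were read beside the 2.51% of all annotated protein-coding symbols that were in either table. At that share fewer than 1 listed gene would fall in a list of up to 28 genes, so a count of 0 in such a list is near the background. None of 20 annotated catenin and junction plaque genes was in either table, including Ctnnb1, the gene of beta-catenin, and none of 28 genes of FAT signalling, planar polarity and the Hippo pathway was. The same held for 28 genes that control the protocadherin cluster or bind protocadherin tails, Ctcf among them, and for 14 regulators of Cdh1 transcription such as Snai1 and Zeb1. Of 23 tip-link and stereocilium partners, 1 was lower and 2 were higher, together 13.0% of a list that was chosen with results of these data known. Myo15, the gene of a myosin that carries cargo to stereocilium tips, stood at -1.68 and Myo3a, another stereocilium myosin gene, at 1.57 in the authors' deposited tables. Of 22 genes for shedding and processing of cadherins, the proprotein convertase gene Pcsk5 was lower, with -1.97 in the authors' deposited table, which makes 4.55% of that list. Of 59 nectin, tight junction and other adhesion genes, 2 were lower and 1 was higher, or 5.08%. Dscam, a homophilic neural adhesion gene, was at -2.10, and the tight junction genes Cldn11 and Cldn2 were at -1.86 and 3.08 in the authors' deposited tables.

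The tables give no levels, so neither the identity of the cells nor the abundance of any member could be checked. None of 17 embryonic stem cell markers, Cdh1 among them, was in either table, where the background of 2.51% gives fewer than 1. Of 13 fibroblast and feeder markers, the collagen gene Col3a1 was lower, with -1.69 in the authors' deposited table, or 7.69% of the list. Of 10 neural progenitor markers, Six3, Pou3f2 and Hes5 were higher, at 4.74, 2.46 and 1.96 in the authors' deposited table, and Cdh2 was in neither table. These were 30.0% of a short list, beside 0.935% of protein-coding symbols in the higher table, and the list was chosen with these genes already known to be listed. The part of these other genes in the members' values was not tested. Fewer cells expressing a member and less of its RNA per cell cannot be told apart in bulk RNA.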

How the data were processed

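RNA was measured in 4 libraries, 2 per group. Per the submitters' processing notes, TopHat2, Cuffdiff and the mm10 build were used. For versions, annotation, test and threshold, nothing is given in the labels used. The deposited value, 1 signed fold change per gene, was handled as a score, since the authors' headers state no scale. Depth is unknown, so its precision cannot be given. Symbols were counted once per table, and 1 symbol was in both tables. No test across libraries was possible, so the tests planned for counts or levels were not run.

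Members and gene lists were chosen with earlier results of these data known. Named genes are the members, up to 4 listed genes per list and up to 3 listed neighbours within 1 Mb. 1 gene of the tip-link list is not reported here. GENCODE M21 (GRCm38, also called mm10) gave positions and transcripts, and 1129 of 1132 symbols were found there. Proteins were translated from the longest complete coding sequence and aligned globally with BLOSUM62, a gap opening cost of 11 and an extension cost of 1. Gaps at the ends cost nothing, and identity was taken over positions where both proteins have a residue. Distinct windows of 75 bases were searched on both strands of all annotated transcripts, not the genome. Motif and window searches were tested on simulated sequences. Alternatives changed the minimum value, the superfamily list, the background, the windows, the motif and the neighbour distance. Python 3.11.15, pandas 2.3.3, numpy 2.4.6, Biopython 1.88 and matplotlib 3.10.9 were used.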

Additional observations from a re-analysis of the deposited data

How the results depend on the processing

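With absolute values of at least 2, 3 superfamily genes were lower and 1 was higher, in place of 5 and 3, and the genes left were Pcdhb20, Fat2, Cdh7 and Pcdh11x. Leaving out the clustered protocadherins or the calsyntenins, Cdhr genes and Ret, or counting every row, kept both counts within 1.5 times. Over all annotated symbols of any type the background share was 2.04%. The Pcdhb20 windows found elsewhere were 5.47% at 50 bases and 0.173% at 100 bases. By the aspartate, arginine and glutamate motif, Fat2 had 8 matches and Pcdhb20 had 2, and with the last residue free Pcdh8 had 6. Within 250 kb, Cdh23 had 1 listed neighbour. These 9 values moved, as each alternative by construction counts another set of genes, windows or letters, and the other 36 stayed close to those reported. No paired analysis was possible because each gene has 1 value for the whole comparison, which also prevented leaving out a replicate. The limits set by depth are unknown.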
